A study of Rattus norvegicus with 4 samples.

Results

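Translation initiation and elongation factors are the proteins that bring a ribosome to a messenger RNA and move it along the coding sequence. Initiation factors of the eIF4 family read the cap of the messenger RNA, eIF2 carries the initiator transfer RNA, and eIF3 holds the parts together on the small ribosomal subunit, while elongation factors eEF1 and eEF2 deliver each further transfer RNA and shift the ribosome by a codon. In macrophages, as in other cells, stress kinases that act on eIF2 and the growth signal that passes through mTOR to the eIF4E-binding proteins set how much protein is made. The genes described here were all those on the arrays whose RefSeq transcript maps to a rat symbol that starts with Eif or Eef and a digit. This rule gave 59 of the 16581 named genes, measured by 83 probes.

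The cells were NR8383, a macrophage line grown from the lung lavage of a normal rat and used after 20 passages. All 4 samples belong to 1 group. They were cultures kept for 48 h in 25 cm2 flasks and then treated for 4 h with the multi-walled carbon nanotube NRCWE006 at a dose labelled 1 cm2/cm2. From each, 100 ng of RNA (integrity number over 7.5) was labelled with Cy3 and hybridised to 1 one-colour Agilent array. The labels call the samples biological replicates. Control cultures, which the design also names, were not analysed here. Nothing given for the factors is therefore a response to the nanotubes, and the comparisons are between arrays, complexes and genes.

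The arrays differed in brightness. The 75th percentile of the signal over detected probes was 384, 281, 236 and 223 on replicates 1 to 4, and each array was scaled to it. Replicate 4 stood apart, with 656 non-uniform spots against 9 to 34 on the other arrays. It also had the highest background, with a median negative control signal of 4.61 against 2.98 to 3.36. All arrays lie on 1 slide, so no batch within the slide could be tested, and precision is limited by having 4 arrays. Of 16 macrophage markers, 6 were well above background on every array (Cd68, Lyz2, Spi1, Fcgr1a, Tyrobp and Fcer1g) and 7 on none. No measured marker of granulocytes (3), lymphocytes (3), endothelium (4), fibroblasts (5) or lung epithelium (8) was above background on every array. Above it on no array were 6 of the 8 lung epithelium markers and 3 of the 4 for endothelium. The same held for all measured markers of fibroblasts, lymphocytes and granulocytes.

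Messenger RNA of 26 of the 59 factor genes (44.1%) was well above background on all 4 arrays, and 10 more were above it on 1 to 3 arrays. The remaining 23 were above background on no array. Over all named genes measured on every array the share detected was 11.9%. In bulk RNA, fewer cells with a transcript and less transcript per cell cannot be told apart. Detection moved with how often a probe was printed. Of 20 factor genes with a probe printed 10 times 18 were detected, against 51.9% of 758 named genes with such a probe. Of the 39 factor genes without one 8 were detected, against 9.92% of 15661 named genes. In both classes the factor share was the higher one. The elongation factor 1 genes had 5 of 8 members detected, eIF2 genes 3 of 5 and eIF3 genes 7 of 12, while the eIF4 genes had 5 of 13, the eIF2B genes 1 of 5 and the eIF2 kinases 1 of 4. The complexes also differ in printing. Every eIF2B and eIF2 kinase probe was printed 1 time, while most eIF3 genes had a probe printed 10 times. The part played by printing in these shares was not tested. A further 16 protein-coding factor genes of the RefSeq table had no matched probe, among them Eif2a, Eif3k, Eif4e2, Eif4g1 and Eif5, and were not analysed here.

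**Figure D1:**
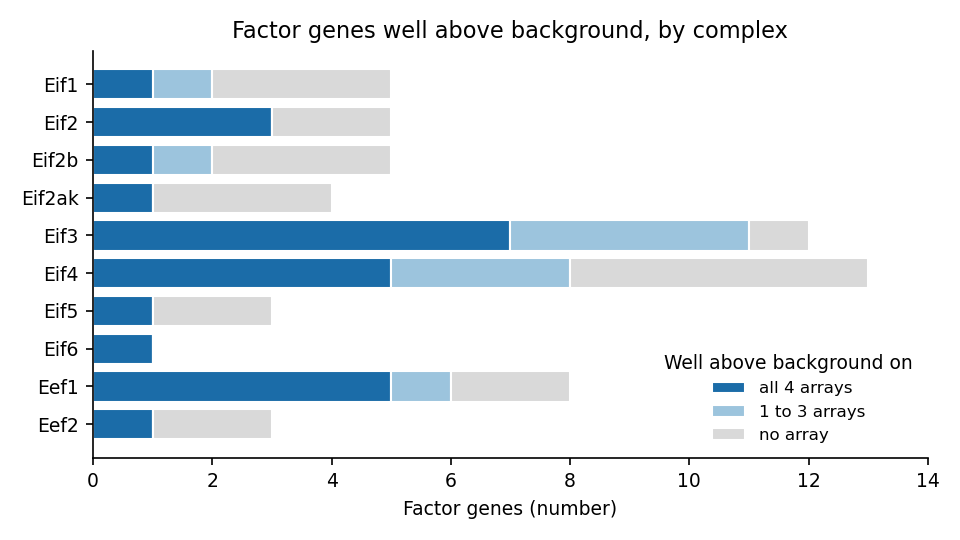
Number of factor genes (x axis) in each complex or family (y axis), split by the number of arrays on which the gene's probe was well above background. Eif3 and Eef1 had 7 of 12 and 5 of 8 genes detected on all 4 arrays, against 1 of 5 for Eif2b and 1 of 4 for Eif2ak. The complexes also differ in how often their probes were printed.

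Many messenger RNAs of the translation machinery begin with a run of C and T that puts them under control of mTOR, the 5′ TOP class, so the stretches around the annotated transcription starts are shown for 6 factors. Each runs from 20 bases before to 20 after the first transcribed base, in the direction of transcription, and capitals mark the longest run of C and T. Sequences are from RefSeq, build GRCr8, and were available for 53 of the 59 genes, not for Eef1d, Eif3e, Eif3h, Eif4b, Eif4e3 and Eif4ebp1. The elongation factor subunits Eef1a1, Eef1b2 and Eef1g, Eef2, the eIF3 subunit Eif3f and the eIF2 subunit Eif2s3 were chosen after the sequences were seen. The first 5 were detected and Eif2s3 was not.
Eef1a1 (chr8:88225049-88225089, minus strand): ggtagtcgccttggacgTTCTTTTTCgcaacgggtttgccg
Eef1b2 (chr9:72074071-72074111, plus strand): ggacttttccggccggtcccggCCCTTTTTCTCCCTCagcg
Eef1g (chr1:215289795-215289835, plus strand): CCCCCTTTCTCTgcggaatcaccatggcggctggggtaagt
Eef2 (chr7:9189218-9189258, minus strand): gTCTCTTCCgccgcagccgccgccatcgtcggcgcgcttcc
Eif3f (chr1:172369042-172369082, plus strand): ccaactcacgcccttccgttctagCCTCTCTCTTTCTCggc
Eif2s3 (chrX:62933679-62933719, minus strand): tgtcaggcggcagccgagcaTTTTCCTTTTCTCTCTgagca

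The runs lie at different places, since that of Eef1a1 begins 3 bases before the annotated first base, that of Eef1b2 begins 2 after it, and those of Eef1g and Eef2 lie wholly before it. A run of 8 or more C or T, on the coding strand only, was found in 13 of the 53 factor windows (24.5%) and in 15.4% of 19005 windows of all protein-coding genes. It was found in 8 of 21 detected factor genes with a window and 5 of the other 32. The run length was set after the sequences were seen, an annotated start can differ from the one the cells use, and these counts are a description with no test.

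Levels below are log2 processed signals after scaling, so that 0 is the 75th percentile of detected probes on that array, with the SD over the 4 cultures. Brightness also depends on the probe, so no gene's level is set against another's, and values are compared between cultures only. For 6 detected genes (Eif2d, Eif2s2, Eif3e, Eif3h, Eif4b and Eif4g2) another probe was above background on no array.

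Among the factors that open initiation, Eif1, which keeps the scanning ribosome from starting at a wrong codon, had levels of 1.72, 1.41, 1.70 and 1.80 in replicates 1 to 4, a mean of 1.66 ± 0.17 (SD, n = 4). Both its probes were lowest in replicate 2. Eif1, like Eef1a1, Eef1g and Eif4e, has many annotated pseudogenes in the rat genome (8 for Eif1), whose transcripts the probes may not separate. Eif6, which keeps the large ribosomal subunit from joining too early, had 1.14, 1.24, 1.22 and 1.21 (1.20 ± 0.04), among the narrowest spreads of the factors. A second Eif6 probe detected on every array had 0.71, 0.80, 1.01 and 0.67 (SD 0.15), lowest in replicate 4. The narrow spread therefore holds for 1 probe only. Eif1a, Eif1ax and Eif1b were above background on no array. Eif1ad, which contains a domain like that of eIF1A, was above it on replicates 1, 2 and 3 only, with signals of 73.1, 45.9, 54.0 and 20.0.

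The eIF2 complex brings the initiator transfer RNA as a GTP-bound trimer. Eif2s1, its alpha subunit and the target of the stress kinases, had levels of -1.68, -1.75, -1.20 and -1.39 (-1.51 ± 0.25). Eif2s2, the beta subunit, had -3.04, -3.16, -2.81 and -1.90 (-2.73 ± 0.57), the widest spread of any detected factor gene, and only replicate 4 stood above the others. Its highest array was 2.39-fold above its lowest, and 1.28-fold without replicate 4. A second Eif2s2 probe was above background on no array. The gamma subunit gene Eif2s3 and its Y-linked copy Eif2s3y were above background on none. Eif2d had -1.25, -0.86, -0.89 and -1.17 (-1.04 ± 0.20). It delivers transfer RNA to ribosomes and, despite its name, is no eIF2 subunit.

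Of the eIF2B complex, the exchange factor that recharges eIF2 with GTP, only Eif2b2, the beta subunit, was detected on every array. Its levels were -0.31, -0.18, -0.11 and -0.97 (-0.39 ± 0.40), with replicate 4 below the other cultures. Eif2b3 reached 17.6 on replicate 1 and was not above background on the other arrays. Eif2b1, Eif2b4 and Eif2b5 were above background on none. Of the 4 eIF2 kinases, Eif2ak1, the heme-regulated one, was detected. It had -3.01, -2.89, -2.87 and -2.02 (-2.70 ± 0.45), and replicate 4 stood above the others by the greater part of the range. Eif2ak2 (the double-stranded RNA sensor PKR), Eif2ak3 (the endoplasmic reticulum stress sensor PERK) and Eif2ak4 (the amino acid sensor GCN2) were above background on none. Their signals were 2.72 to 10.5, where the 95th percentile of negative controls was 3.48 to 5.10, so a low level cannot be told from background.

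eIF3 is the largest initiation complex. Eif3c, a core subunit, had levels of 0.92, 0.97, 1.05 and 0.70 (0.91 ± 0.15), and Eif3f, one of the subunits with an MPN domain, had 1.23, 1.21, 1.19 and 0.88 (1.13 ± 0.17). Eif3h, the partner of Eif3f in the same module, had 0.37, 0.45, 0.47 and 0.07 (0.34 ± 0.19). These 3 genes were lowest in replicate 4, and without it Eif3f spanned 1.03-fold and Eif3h 1.07-fold. Eif3i, a core subunit, had 0.32, 0.48, 0.29 and 0.18 (0.32 ± 0.12), and Eif3d, which can itself bind the cap of some messenger RNAs, had -2.30, -2.27, -2.32 and -2.76 (-2.41 ± 0.23). Both were again lowest in replicate 4, although a second Eif3i probe detected on every array was lowest in replicate 3, at -1.22 against -1.01 in replicate 4. Eif3b, a core scaffold subunit, went the other way, with -2.12, -2.40, -2.06 and -1.54 (-2.03 ± 0.36). Eif3e had -2.92, -2.74, -2.21 and -2.37 (-2.56 ± 0.33), high in replicates 3 and 4.

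The other eIF3 subunits were near the limit of detection. Eif3a, the large scaffold subunit, was above background on replicates 1 and 3 with signals of 21.6, 7.92, 17.8 and 6.77, although its probe was printed 10 times. Eif3m had 25.4, 17.3, 28.5 and 13.0 and Eif3l had 49.4, 33.3, 31.3 and 20.6, both above background on replicates 1, 2 and 3. Eif3g had 26.0, 14.7, 10.1 and 38.6, above background on all but replicate 3. Eif3j was above background on none.

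**Figure D2:**
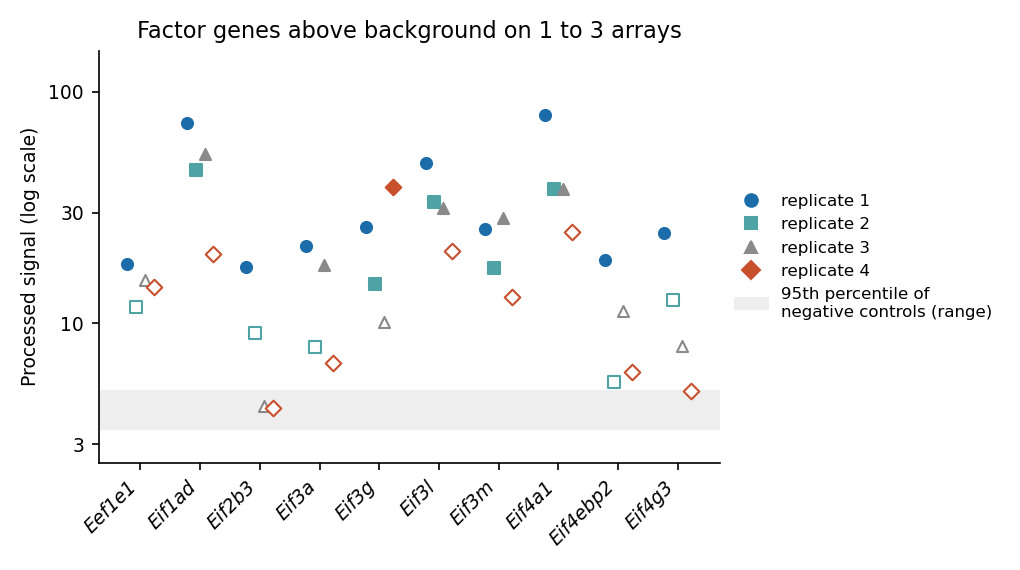
Processed signal (y axis, log scale) of the 10 factor genes above background on 1 to 3 arrays, with filled symbols where the probe was above background, open symbols where it was not, and the band showing the 95th percentile of negative controls on the 4 arrays (3.48 to 5.10). Most open symbols lie above the band. Brightness also depends on the probe, so heights are not compared between genes.

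The eIF4 group loads the ribosome onto the cap. Eif4e, the cap-binding protein, was above background on no array (signals of 2.73 to 4.08), as was its other measured family member Eif4e3, and Eif4g1 was not measured. Eif4ebp1, the repressor that mTOR switches off, had levels of 0.02, 0.15, 0.08 and 0.04 (0.07 ± 0.06). Its spread was among the narrowest of the factors, while Eif4ebp2 reached 18.8 on replicate 1 alone and Eif4ebp3 was above background on none. Eif4a1, the helicase that unwinds leader sequences, was above background on 3 arrays by each of 2 probes, which disagreed on the array missed. The signals of these probes on replicate 4 were 24.8 and 84.1. Eif4a2, the second such helicase, was above background on none.

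Eif4a3, a related helicase of the exon junction complex, had levels of -0.98, -0.88, -0.91 and -1.11 (-0.97 ± 0.10). The helicase cofactors Eif4b and Eif4h both stood low in replicate 4. Eif4b had -2.25, -2.53, -2.36 and -2.96 (-2.53 ± 0.31), and Eif4h had -1.48, -1.59, -1.53 and -2.39 (-1.75 ± 0.43). For Eif4h, the first 3 cultures lay within 1.07-fold of each other. Eif4g2, a relative of eIF4G that does not bind eIF4E, had -0.48, -0.87, -0.61 and -1.12 (-0.77 ± 0.29). Another of its probes detected on every array was highest in replicate 4 instead, at -2.49 against -3.35, -3.92 and -3.27 in replicates 1 to 3. The direction of replicate 4 for Eif4g2 therefore depends on the probe. Eif4g3 reached 24.5 on replicate 1 alone, and Eif4enif1, a transporter of eIF4E, was above background on none.

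Eif5a, which carries hypusine and helps the ribosome through difficult peptide bonds, had levels of -0.44, -0.45, -0.23 and -0.59 (-0.43 ± 0.15). Its paralog Eif5a2 and Eif5b, which joins the ribosomal subunits, were above background on no array.

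Among elongation factors, Eef1a1, which brings aminoacyl transfer RNA to the ribosome, had levels of 2.28, 1.98, 2.25 and 1.88 (2.10 ± 0.20). Its 3 probes were all lowest in replicate 4. Eef1a2, the isoform known for muscle and neurons, had signals of 21.9 to 26.1. The levels of Eef1a2 were -4.13, -3.62, -3.18 and -3.11 (-3.51 ± 0.47) and spanned 2.03-fold. Its spots on replicate 4 scattered with an SD of 0.91, so that this value is poorly fixed.

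The eEF1B subunits reload eEF1A with GTP. Eef1b2 had 1.00, 0.70, 0.77 and 0.62 (0.77 ± 0.17) and Eef1g had 1.47, 1.54, 1.66 and 1.38 (1.51 ± 0.12), each lowest in replicate 4. Eef1d had 1.60, 1.55, 1.56 and 1.56 (1.57 ± 0.02), the narrowest spread of all detected factors, 1.03-fold from highest to lowest array. Eef2, which moves the ribosome along the message, had 0.45, 0.22, 0.15 and 0.63 (0.36 ± 0.22) and was highest in replicate 4. Eef1e1, a part of the aminoacyl transfer RNA synthetase complex, reached 18.1 on replicate 1 and was not above background elsewhere. The eEF2 kinase Eef2k, the methyltransferase Eef2kmt, Eef1akmt1 and Eef1akmt2 were above background on none.

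**Figure D3:**
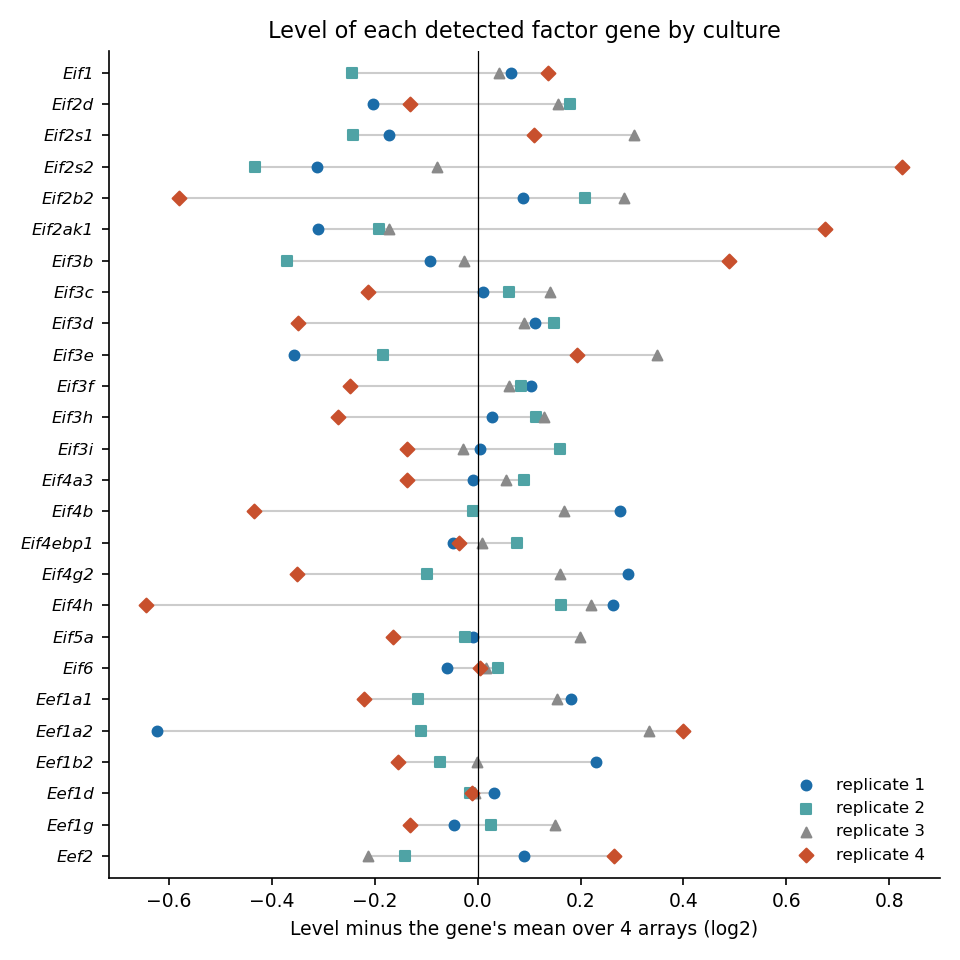
Level of each of the 26 detected factor genes in every culture minus its mean over the 4 arrays (x axis, log2), ordered by complex, with a symbol for each replicate. Replicate 4 (diamonds) is the lowest array in 14 genes and the highest in 6, and Eif2s2 has the longest range.

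The spread of the detected factors between cultures was summarised next. The median SD over the 4 arrays was 0.20 (lowest 0.02, highest 0.57), against 0.24 for all 1946 detected named genes (10th to 90th percentile 0.10 to 0.52). Over 2-fold between highest and lowest array was seen in 2 of the 26 genes, Eif2s2 and Eef1a2 (7.69%), where 15.3% of all detected genes passed that fold. These values describe the 26 genes detected and not all 59. The factors and all detected genes also differ in their probes. Of the 26 factor genes, 18 had a value from a probe printed 10 times, while 393 of the 1946 had any such probe. Under normexp background correction the median SDs were 0.156 and 0.167. The spreads are therefore no like comparison, and the part played by printing and brightness was not tested. With replicate 4 left out and detection set on the other 3 arrays, 30 factor genes were detected and none passed 2-fold, where 3.66% of 2459 detected genes did. Their median SD was then 0.14, against 0.19 for all detected genes.

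**Figure D4:**
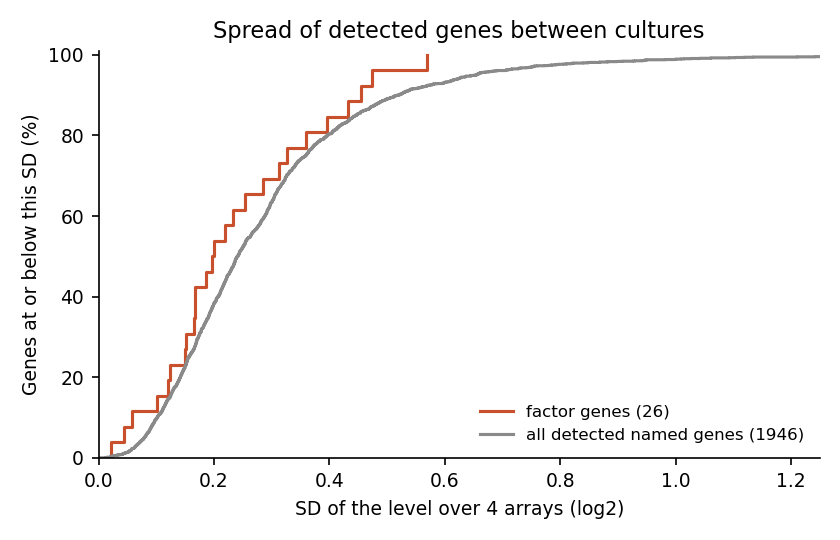
Share of detected genes (y axis, %) whose SD of the level over the 4 arrays (x axis, log2) is at or below a value, for the 26 factor genes and all 1946 detected named genes. The factor curve lies mostly left of the curve of all genes, with medians of 0.20 and 0.24.

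Replicate 4 was set against the other 3 cultures because it stood apart as an array. The level in it minus the mean of the other 3 arrays had a median of -0.18 over the factors, and 17 of 26 were lower in it, against a median of -0.07 over all detected genes, of which 56.6% were lower. Set against the shift of all detected genes, the factor median was -0.11, and it turned to 0.20 under quantile normalization. For the eIF3 genes it was -0.21 and turned to 0.11 under quantile normalization, and for the eEF1 genes it was -0.11 and turned to 0.24. As reported and under both quantile normalization and normexp, 7 genes lay above the median shift of all genes and 5 below it, while 14 changed sign. Those above were Eif2s2 (1.17), Eif2ak1 (0.97), Eif3b (0.72), Eef2 (0.43), Eif1 (0.25), Eif2s1 (0.22) and Eif6 (0.08, by 1 of its probes). Those below were Eif4h (-0.79), Eif2b2 (-0.70), Eif4b (-0.51), Eif4g2 (-0.40, by 1 of its probes) and Eif3d (-0.39), and under normexp Eif4b and Eif3d were at -0.09. How many of all detected genes keep their sign in this way was not counted. The 7 and 5 therefore show nothing particular to the factors. In 4 of the 26 genes replicate 4 lay apart from the other 3 arrays by more than Dixon's 95% limit. Of all 1946 detected genes, 148 had 1 array of any number beyond it (7.61%), and in 102 of them it was replicate 4. With 1 culture behind it, the difference has no replicate check, and the part played by the array's non-uniform spots was not tested.

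Spots of probes printed 10 times allowed the arrays to be compared with the noise between spots (moderated F test of limma, Benjamini-Hochberg adjusted over 1350 probes). Of 24 factor probes 19 differed between arrays, where 81.0% of all such probes did. Among those above background on every array, 17 of 22 factor probes differed, where 74.6% of all such probes did. The test compares arrays and not cultures. By limma, Eif2s2 had an adjusted p of 9.22e-14 and Eif3e of 1.33e-08. Eif3h (adjusted p 9.4e-08 by limma) and Eef2 (1.14e-07) followed. Spots of Eef2 scattered, for comparison, with an SD of 0.12 to 0.16. Probes that missed the threshold in limma were those of Eef1d (adjusted p 0.892), Eif4ebp1 (0.457), both probes of Eif3i (0.154 and 0.163) and 1 of 3 for Eef1g (0.0561). A p that misses the threshold does not show that these levels were equal.

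**Figure D5:**
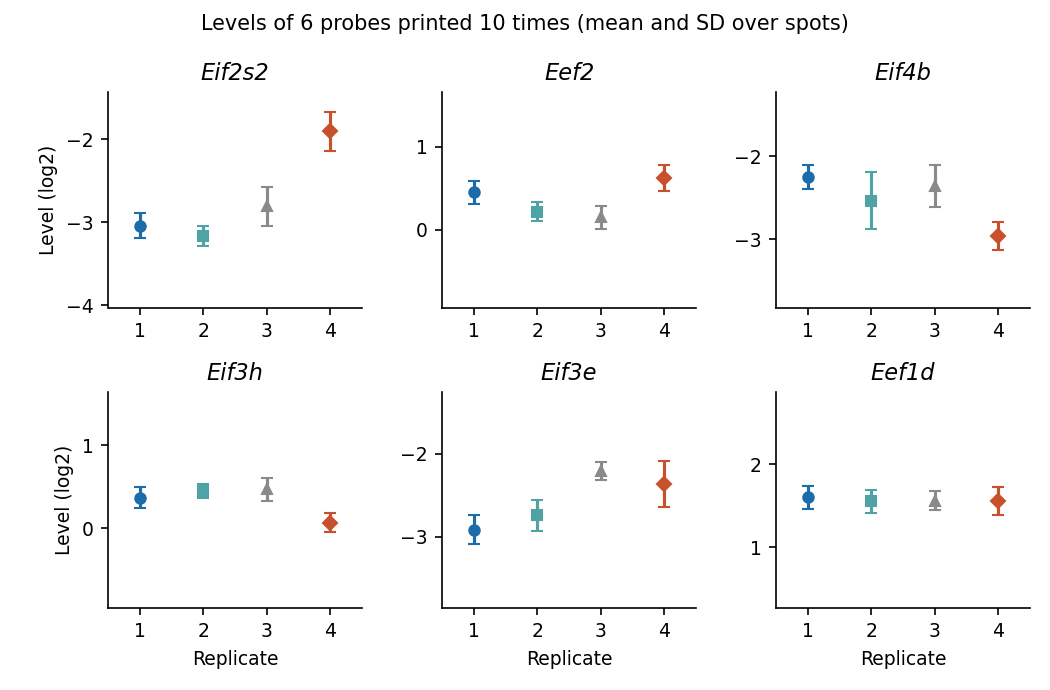
Level (y axis, log2) on each replicate array (x axis) of 6 factor probes printed 10 times, chosen after their values were seen, with the SD over spots as bars. Eif2s2 and Eef2 are highest in replicate 4, Eif4b and Eif3h lowest, Eif3e is high in replicates 3 and 4, and the bars of Eef1d overlap on all arrays.

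The other genes of the translation pathway numbered 60 on the list, 55 with a probe. Of these 25 were above background on every array (45.5%, where 11.9% of all named genes were), 8 on 1 to 3 and 22 on none. The median SD of the 25 was 0.24, the same as over all detected genes. Of the 25, 2 spanned over 2-fold, Rheb and Trib3, where 15.3% of all detected genes did. Of those that bind the cap, poly(A) tail or ribosome, 5 of 9 were detected, and Pabpc1, the poly(A)-binding protein, had 1.68, 1.16, 1.62 and 1.27. Pabpc4, Paip2, Mcts1 and Rack1 were the other 4. Of the termination and recycling genes 2 of 7 were detected, Etf1 (the release factor) and Pelo (ribosome rescue).

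Of the mTOR and MNK genes 6 of 12 were detected. These were Rptor, Rheb, Tsc2, Rps6kb2, Rps6 and Mknk2, while Mtor itself was above background on none. Rheb, the small GTPase that switches mTOR on, had -3.64, -3.98, -3.05 and -2.42, highest in replicate 4. In the eIF2 stress response, 6 of 9 were detected, and they include the transcription factors Atf4 and Ddit3, which follow eIF2 phosphorylation. Atf4 had -0.74, -1.15, -1.09 and -0.84 (-0.95 ± 0.20) and Ddit3 had -1.08, -1.22, -1.82 and -1.42 (-1.39 ± 0.32). The others were Ppp1r15a and Ppp1ca, which act in removing the phosphate from eIF2, Trib3, and Gcn1, the partner of the kinase Eif2ak4. With no culture without nanotubes, these levels say nothing on whether the response was active.

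Of 5 genes around hypusine and polyamines, 3 were detected, Odc1 and Srm, which make polyamines, and Dohh, which finishes hypusine on eIF5A. Dohh had 0.59, 0.73, 0.47 and 1.21 and Srm 0.56, 0.80, 0.89 and 1.05, both highest in replicate 4. Of 5 genes that modify or specialise elongation factors, Dph1 (diphthamide on eEF2) and Eefsec (selenocysteine delivery) were detected. Of 8 mitochondrial factors only Tufm was detected, with 0.07, -0.02, -0.21 and -0.25.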

How the data were processed

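Each of the 4 samples is 1 array. The deposited files are scanner output, per the file headers, and hold spot intensity on a linear scale. The processed signal is intensity from which the software had subtracted background, unscaled between arrays. The submitters' processing notes name Agilent Feature Extraction, version 11.0.1.1. Flags of the deposited files (well above background, non-uniform, population outlier, saturated) were used as the software wrote them. No gene spot was saturated.

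The 4259 control spots and flagged spots (546 to 1296 gene spots per array) were left out, and log2 signals of a probe's spots were averaged. A probe was called where over 50% of the spots left exceeded background by the software's flag, and detected where called on all 4 arrays. Arrays were scaled by the 75th percentile of detected probes. The detected probe with the highest mean level gave a gene's value. Of 45598 probes, 21109 were named by matching accessions to RefSeq genes (GRCr8). The 16419 genes with a value on every array are the base for the share detected. The members and gene lists were chosen with earlier results of these data known. All factor genes are accounted for, and all detected genes of the pathway list are named.

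Probes printed 10 times were compared between arrays with limma version 3.58.1 in R version 4.3.3 (adjusted p below 0.05), whose residual is the noise between spots. Tested on simulated data (1350 probes, 4 arrays compared), it called 34% of probes changed by 0.25 on the log2 scale on 1 array, 72% at 0.5, 98% at 1 and 100% at 1.5, and 3 of 1150 unchanged probes. Noise in the simulation was normal and independent between spots. Its shares may therefore not hold for the real arrays, where 81.0% of these probes were called. Python version 3.11.15, numpy version 2.4.6 and pandas version 2.3.3 did the rest. The alternatives were quantile normalization, the percentile over all gene probes, normexp background correction (offset 50), no scaling, other detection rules, flagged spots kept, the mean over a gene's detected probes, and each replicate left out in turn.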

Additional observations from a re-analysis of the deposited data

Results flagged for a closer look

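In 4 of the 26 detected factor genes, 1 array lay so far from the others that its gap to the nearest one exceeded Dixon's 95% limit for its share of the whole range. In every case it was replicate 4. Eif2ak1, the heme-regulated eIF2 kinase, was high there at -2.02 (gap 0.861 of the range). Low there were the eIF3 subunits Eif3d at -2.76 (0.883) and Eif3f at 0.88 (0.879), and the helicase cofactor Eif4h at -2.39 (0.889). Spots of the Eif3d probe scattered with an SD of 0.46 on replicate 4, against 0.11 to 0.17 on the other arrays. Set against the shift of all detected genes, Eif3f was at -0.26 in replicate 4 and turned to 0.11 under quantile normalization. Chance passes about 1 in 20 groups of this size, but over all 1946 detected genes 148 had 1 array beyond the limit (7.61%), and in 102 of these it was replicate 4. The number of non-uniform spots was also far from the others in replicate 4, at 656 (gap 0.961 of the range). Its part in the 4 genes was not tested. None of the 25 detected pathway genes passed the limit.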

How the results depend on the processing

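The count of factor genes detected was 26, and 35 by negative controls, 31 on at least 3 arrays, 26 with flagged spots kept and 26 to 30 with a replicate left out. Over all named genes these counts were 1946, 3570, 2538, 1968 and 1951 to 2459. The count of factor genes over 2-fold is given with the share of all detected genes in brackets. It was 2 as reported (15.3%), 5 under quantile normalization (40.4%) and 23 with the percentile over all gene probes (92.8%). It was 11 without scaling (52.8%), 0 under normexp (2.0%) and 7 with detection by negative controls (36.0%). With detection on at least 3 arrays, a setting added for this count after seeing the data, it was 5 (24.8%). With a replicate left out it was 0 to 4. It was 0 without replicate 4 (3.66%), 1 without replicate 1 (12.5%), 3 without replicate 2 (13.7%) and 4 without replicate 3 (13.8%). The median SD of 0.20 was 0.89 with the percentile over all gene probes and 0.40 without scaling, where the median of all detected genes was 0.85 and 0.46. With a replicate left out it was 0.14 to 0.23. The relative deviation of replicate 4, -0.11, was 0.20 under quantile normalization, which moved the median of all detected genes in replicate 4 to -0.47 (-1.64 with the percentile over all gene probes, -0.47 without scaling, 0.08 under normexp). With replicates 1 to 3 left out in turn it was -0.15 to -0.07, and under the other settings -0.13 to -0.04. Without scaling and with the percentile over all gene probes this relative deviation could not move, since a shift of a whole array cancels in it. Of the 26 mean levels, 16 moved by over 1 SD under normexp, 3 without replicate 3 and 22 without replicate 4. Under quantile normalization 1 moved, but only there were levels taken relative to the median of detected genes. The quantile count is therefore no like comparison with the other counts. With a replicate left out, scaling was redone on the probes then detected, which also moves the zero of the levels. Without replicate 4 all 26 mean levels rose, that of Eef1d from 1.57 to 1.97. The 22 are therefore no count of genes whose level depends on replicate 4. Counts of factor probes that differ between arrays (limma) were 19 as reported, 16 to 24 under the other settings and 14 to 19 with a replicate left out. Of all 1350 such probes, 1093 differed as reported, 782 to 1301 under the other settings and 915 to 1046 with a replicate left out. Apart from the moved zero, the causes of these changes were not tested. Signal over background limits the 33 genes not detected on every array. No paired analysis was possible because there is 1 group.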
